A study of Mus musculus with 6 samples.

Results

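The genes described here were 41 ER stress and amino acid response genes of the mouse, chosen by name and followed in wild-type and Il17a knockout T cells. They formed 2 lists, 20 unfolded protein genes (from Hspa5 to Syvn1) and 21 amino acid response genes (from Ddit3 to Cebpg), out of 38483 genes in the deposited table. Each of the 41 names matched 1 gene, and all 41 passed the filter on low counts that left 15121 genes for testing. The cells were CD4+CD62L+ T cells taken from spleens of B10.RIII mice, an inbred strain, that were either IL-17A+/+ wild-type or IL-17A-/- knockout. All cultures received the same medium for 3 days, which drives naive cells toward the Th17 state: IL-6 and IL-23, both at 10 ng/ml, TGF-β at 1 ng/ml, and neutralising antibodies to IFN-γ and to IL-4, each at 10 µg/ml. RNA was read by stranded mRNA sequencing in 3 libraries of each genotype, numbered 1 to 3. The submitters call them biological replicates without saying whether a library came from 1 mouse or a pool, so p-values measure only the spread between these libraries, which may be technical in part. The age of the mice is not stated in the labels.

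Proteins that enter the secretory pathway fold in the endoplasmic reticulum (ER). When unfolded chains accumulate there, the membrane sensors IRE1α (encoded by Ern1), ATF6 and PERK (encoded by Eif2ak3) raise the production of chaperones and of the machinery that exports and degrades misfolded chains. PERK, and the sensor of uncharged tRNA, phosphorylate the initiation factor eIF2α, which slows translation in general and favours that of ATF4, the factor that turns on amino acid synthesis and import genes and the stress regulator CHOP (encoded by Ddit3). Activated T cells use both programmes, since they grow, divide and secrete cytokines.

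Both lists carry known promoter elements, so the windows upstream of the members were searched and the sequences behind the search are shown here. RefSeq promoter entries (build GRCm38.p6) were found for 37 of the 41 members, in 40 windows of 250 bases that end at the base before the annotated start, and Manf, Atf6, Slc7a5 and Slc1a5 had none. Both strands were searched for the ER stress element ERSE (CCAAT, 9 bases of any kind, then CCACG), for ERSE-II (ATTGG, 1 base of any kind, then CCACG), for the unfolded protein response element UPRE (TGACGTGG) and for the C/EBP-ATF composite element CARE (TGATGNAAN). The letters CCACG of the first motifs are also part of UPRE read on the other strand, so these can overlap, but no match in a member overlapped another. ERSE was found upstream of 8 of the 18 unfolded protein genes with an entry (44.4%), against 0.113% of all 32851 windows in the RefSeq table. The elements are lined up here in the direction of the motif, with its fixed letters in capitals, to show how the 9 bases between the CCAAT and CCACG boxes differ from gene to gene. Hsp90b1 had 2 matches.
Hspa5: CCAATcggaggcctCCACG
Hsp90b1, farther from the start: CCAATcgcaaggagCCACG
Hsp90b1, nearer to the start: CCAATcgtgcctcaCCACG
Calr: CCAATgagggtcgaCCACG
Canx: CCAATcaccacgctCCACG
Pdia6: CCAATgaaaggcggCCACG
Creld2: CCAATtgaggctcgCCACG
Dnajc3: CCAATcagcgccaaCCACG
Syvn1: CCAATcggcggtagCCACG

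CARE was found upstream of 4 of the 19 amino acid response genes with an entry (21.1%), against 3.89% of all genes in the RefSeq table. Of all windows, 3.44% held it. Those genes were Asns, Atf3, Chac1 and Slc7a11, and CARE was also found upstream of Herpud1 in the other list. ERSE-II was found upstream of Herpud1 alone among the members (0.0304% of all windows), UPRE was found in 0 of the 40 windows (0.563% of all windows), and ERSE was found in 0 windows of amino acid response genes. The CARE matches, in the direction of the motif, read as follows. Slc7a11 had 2 matches.
Asns: TGATGaAAc
Atf3: TGATGcAAg
Chac1: TGATGcAAc
Slc7a11, farther from the start: TGATGcAAa
Slc7a11, nearer to the start: TGATGcAAa
Herpud1: TGATGcAAc

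Whole windows are given for 3 members with different contents: Syvn1 with ERSE, Herpud1 with ERSE-II and CARE, and Slc7a11 with CARE on both strands. They read 5′ to 3′ on the strand of the gene, with the fixed letters of the motifs in capitals, in GRCm38.p6. Syvn1 lies at chr19:6046326-6046575 on the plus strand, Herpud1 at chr8:94386179-94386428 on the plus strand, and Slc7a11 at chr3:50443614-50443863 on the minus strand. A match is a description of the letters, not evidence of binding.
Syvn1: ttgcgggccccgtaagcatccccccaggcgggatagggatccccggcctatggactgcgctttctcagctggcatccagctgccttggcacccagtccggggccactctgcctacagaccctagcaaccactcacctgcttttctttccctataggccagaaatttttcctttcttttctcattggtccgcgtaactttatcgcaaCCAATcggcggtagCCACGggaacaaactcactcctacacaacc
Herpud1: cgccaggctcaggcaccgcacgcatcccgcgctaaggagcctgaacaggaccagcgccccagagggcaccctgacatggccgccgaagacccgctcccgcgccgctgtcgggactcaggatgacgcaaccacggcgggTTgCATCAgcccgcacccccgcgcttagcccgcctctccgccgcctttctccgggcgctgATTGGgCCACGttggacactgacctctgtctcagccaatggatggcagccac
Slc7a11: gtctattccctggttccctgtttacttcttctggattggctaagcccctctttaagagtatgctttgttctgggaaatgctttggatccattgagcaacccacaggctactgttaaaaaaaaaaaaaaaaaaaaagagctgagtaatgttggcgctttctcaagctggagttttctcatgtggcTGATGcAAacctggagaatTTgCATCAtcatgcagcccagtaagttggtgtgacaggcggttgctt

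Some facts of the libraries touch every comparison. The libraries held 47335736 to 49743762 estimated counts each, and CPM below is the count of a gene as a share of its library's scaled total, in the usual counts-per-million unit. Il17a itself checked the labels, with 108 to 211 CPM in all wild-type and 0 to 1.11 CPM in all knockout libraries. A library with 0 counts of a gene allows up to 3 counts, about 0.06 CPM. Xist was near 0 in knockout 1 and knockout 2 (2.58 and 0 CPM) and between 567 and 664 CPM in the other 4 libraries, and the Y-linked Ddx3y was at 44.5 and 38.0 CPM in those 2 libraries and at most 0.45 CPM elsewhere. Genotype and the sex of the mice therefore cannot be told apart in the pairs numbered 1 and 2, and pair 3 is the pair in which these genes did not differ. The same values show that the knockout libraries did not all come from the same animals. Knockout 1 also had the highest summed level of 3 CD8 T cell markers (784 CPM, against 87.9 to 495 CPM elsewhere), of 5 NK cell markers (573 against 77.9 to 315 CPM) and of 8 B cell markers (504 against 60.2 to 228 CPM). Most of its NK sum was Klrd1 and Klrk1 (333 and 220.5 CPM), and Eomes was also highest there (19.2 CPM). Ncr1 was lowest there (0.0978 CPM), and Klrb1c had 0.645 CPM there against 2.05 CPM in knockout 2. The NK markers thus did not rise as a set in knockout 1. The same library had the lowest Cd4 (246 CPM, against 380 to 634). The summed level of 12 plasma cell genes, Xbp1 among them, ran from 1397 to 1675 CPM in wild-type and from 1626 to 1742 CPM in knockout libraries, and the plasma cell receptor gene Tnfrsf17 was at 0 in all 6. Irf4 (386 to 1015 CPM), Ighm (179 to 703 CPM) and Xbp1 made up most of that sum. It hides wider shifts of less abundant genes, such as Igj (4.61 to 52.7 CPM) and Ighg2b (3.47 to 75.15 CPM), both highest in knockout 3. Of 8 myeloid markers the sum was 79.9 to 250 CPM in wild-type and 122 to 386 CPM in knockout libraries, while both erythroid markers found were near 0. In DESeq2 with the replicate number as a block, described below, markers of other cells rose in the knockout, among them Cd8a and Klrc1, Klrd1 and Klrk1, the B cell genes Ms4a1, Cd22 and Blk, the plasma cell genes Igj, Pou2af1 and Igkc, and the myeloid genes Itgam, Clec7a, Mpeg1 and Ctss. The platelet gene Itga2b fell in that fit, as did Xbp1 of the plasma cell list (log2 difference -0.47). Sdc1 and Irf4 of that list (-0.36 and -0.27) and the myeloid gene Cd68 (-0.20) were also lower there, without passing. The T cell gene Cd3e was at 163 to 222 CPM in all libraries. In such bulk cultures a smaller share of a cell type and less RNA per cell cannot be told apart.

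All 41 genes were detected in every library, over a wide range of levels. Scaled for transcript length (TPM, a share like CPM but per base of transcript), the most abundant unfolded protein gene was Calr, a lectin-type chaperone, with a mean of 262 TPM (range 202 to 386 over the 6 libraries). It was followed by the chaperones Hsp90b1 (158 TPM) and Hspa5 (149 TPM), the disulfide isomerase Pdia3 (142 TPM) and the factor Xbp1 (137 TPM), whose ranges overlapped. The sensors were far lower: Eif2ak3 had 14.1 TPM, Atf6 5.89 TPM and Ern1, the lowest of the list, 3.55 TPM (range 3.14 to 4.03). Among the amino acid response genes, Ddit4, which restrains the growth kinase mTORC1, was highest at 198 TPM (range 137 to 266), followed by the glutamine carrier Slc1a5 (142 TPM) and by Atf4 (141 TPM), with overlapping ranges. Chac1, which degrades glutathione, was lowest at 1.13 TPM (range 0.538 to 2.62). Sdf2l1 and Creld2, at 22.5 and 19.6 TPM, and Herpud1 at 31.0 TPM stood in the middle of the list, and Dnajb9 was near the bottom at 4.03 TPM.

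**Figure D1:**
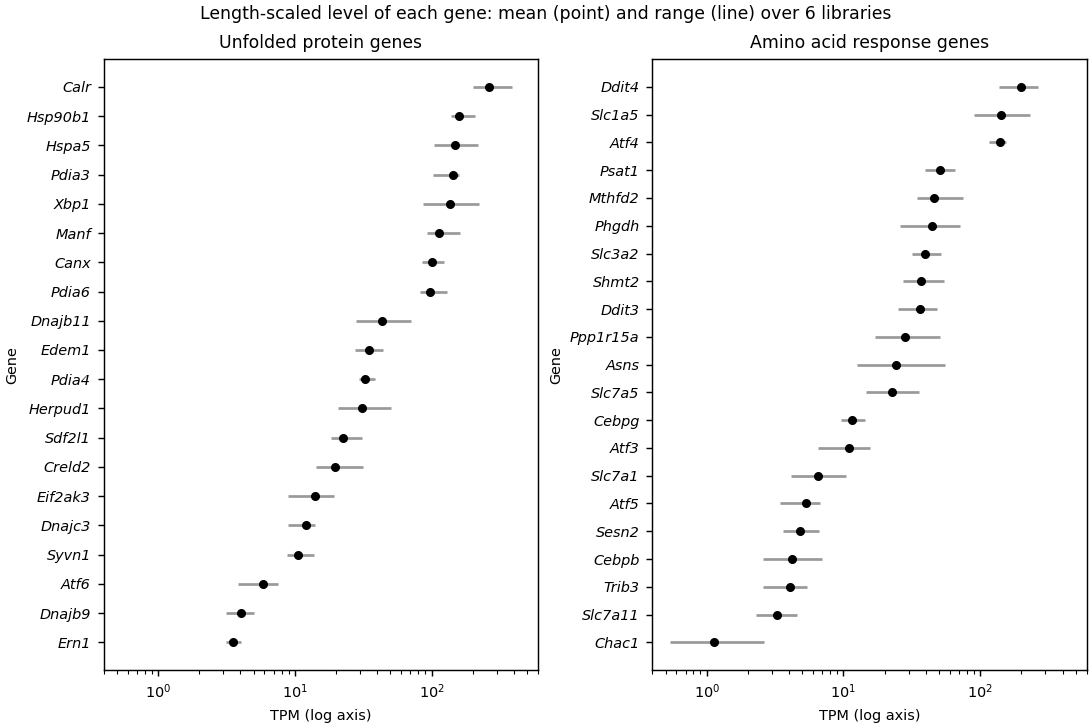
Length-scaled level of each unfolded protein gene (left) and amino acid response gene (right), in TPM on a log axis, with the mean over 6 libraries as a point and the range as a line. Levels run from 1.13 TPM (Chac1) to 262 TPM (Calr), and the ranges of neighbours in the order overlap except at the steps from Atf6 to Syvn1, Dnajb11 to Pdia6, Cebpg to Slc7a5 and Psat1 to Atf4.

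The main question of the design was whether loss of Il17a altered these genes. In edgeR's test of the genotype, 0 of the 20 unfolded protein genes and 0 of the 21 amino acid response genes passed an adjusted p of 0.05, where percent called among all 15121 genes was 0. Il17a, the deleted gene, did not pass there either (log2 difference -8.7, adjusted p = 0.9999). The 0 calls of that test therefore do not show that a gene was unchanged. At an unadjusted p under 0.05 the test gave 0 of the 20 and 2 of the 21 (Ppp1r15a lower and Slc7a11 higher in knockout), against 1.67% of all genes (0.86% lower and 0.813% higher). Libraries of the same number deviated together, so the number was also used as a block that compares knockout and wild-type within each pair. With that block edgeR and limma-voom gave 0 calls in both lists (0 of all genes in each), with 1 and 4 members at an unadjusted p under 0.05 in edgeR, where 9.73% of all genes had one (5.3% lower and 4.42% higher). Those members were Xbp1, Ddit3, Ppp1r15a and Cebpg, lower in knockout, and Slc7a11, higher. DESeq2 with the block gave 1 call of 20 and 2 of 21, against 2.52% of all genes tested (1.5% lower and 1.02% higher in knockout), of which 14241 had an adjusted p. Those 3 genes, Xbp1, Ddit3 and Ppp1r15a, were all lower in the knockout, and the calls rest on that tool. Il17a did not pass in edgeR or limma-voom with the block (adjusted p = 0.217 and 0.148) but passed in DESeq2 with it (adjusted p = 4.4e-06). The same fit called the markers of other cells named above, and the part of such cells in these differences was not tested. The median log2 difference was 0.13 for the unfolded protein genes (16 higher and 4 lower), -0.11 for the amino acid response genes (9 higher and 12 lower) and 0.01 for all genes.

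**Figure D2:**
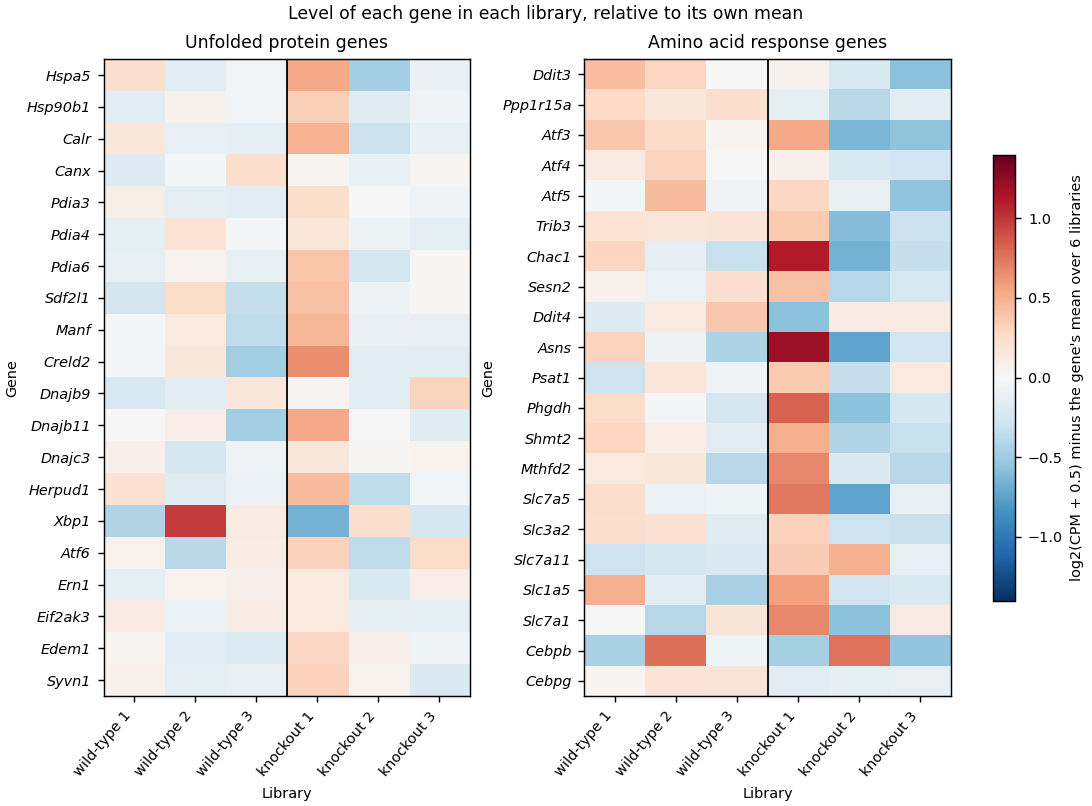
Level of each gene (rows) in each of the 6 libraries (columns) as log2(CPM + 0.5) minus the mean of that gene over the libraries, with red for higher and blue for lower. Knockout 1 is the highest library for 16 of 20 unfolded protein genes and 13 of 21 amino acid response genes.

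The chaperones and folding enzymes varied with the library more than with the genotype. Summed over the 20 unfolded protein genes, the level was 3185, 3344 and 3059 CPM in wild-type libraries 1 to 3 and 3916, 2913 and 3044 CPM in knockout libraries 1 to 3. Knockout 1 was thus above all wild-type libraries and the other knockout libraries below them, knockout 3 by little. Hspa5, the Hsp70 of the ER, had 450.0, 346 and 373 CPM in wild-type and 554, 277 and 359 CPM in knockout libraries 1 to 3. Its log2 difference was 0.03 (SE 0.27) in edgeR, smaller than the spread within the knockout. Calr had 498, 411 and 409 CPM in wild-type and 627, 362 and 414 CPM in knockout libraries 1 to 3. The knockout libraries again bracketed the wild-type ones, and the difference was 0.09 (SE 0.23). Of the 13 chaperones and folding enzymes all 13 were higher in knockout 1 than in wild-type 1, 2 were higher in pair 2 (Pdia3 and Dnajc3) and 9 in pair 3. The median log2 ratios of the group were 0.33, -0.23 and 0.11 in pairs 1, 2 and 3. The widest excursions were those of Creld2 and Sdf2l1, small ER proteins, with log2 ratios of 0.68 and 0.67 in pair 1 and of -0.31 and -0.33 in pair 2. Dnajb11, a co-chaperone of Hspa5, had 65.5, 69.4 and 46.7 CPM in wild-type and 94.5, 65.6 and 57.8 CPM in knockout libraries 1 to 3. Its log2 ratios were 0.53, -0.08 and 0.31, and those of Dnajb9, another co-chaperone, 0.25, -0.00 and 0.16. Hsp90b1, Canx, Pdia4, Pdia6 and Manf likewise differed in sign between pairs. Pdia3, which oxidises glycoproteins held by Calr and Canx, was higher in knockout in all pairs (0.16, 0.14 and 0.11), as was Dnajc3 (0.08, 0.25 and 0.11), where 16.6% of all genes were higher in all pairs. Neither passed a test.

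**Figure D3:**
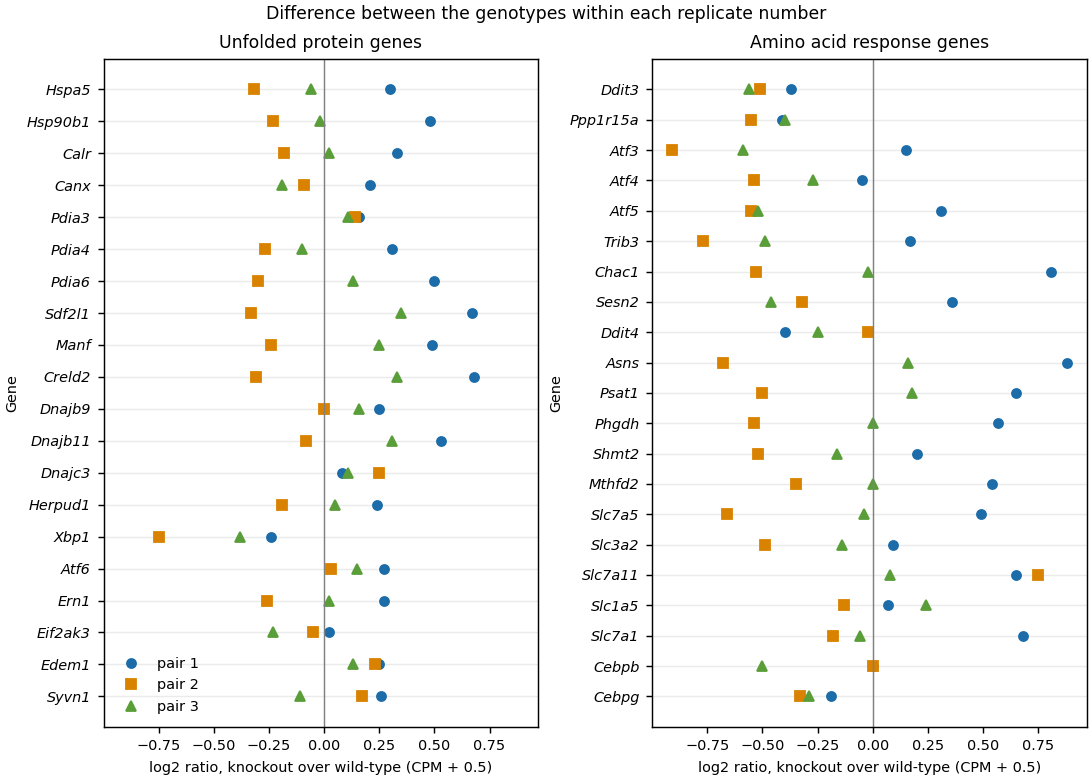
Log2 ratio of knockout over wild-type CPM + 0.5 within each replicate number, for each unfolded protein gene (left) and amino acid response gene (right), with 1 symbol per pair. In pair 1, 19 of 20 and 15 of 21 genes lie right of 0, and in pair 2, 5 of 20 and 1 of 21; points at the same value are drawn over each other.

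The tilt of the unfolded protein list toward higher values rested on knockout 1. That library held the highest level of 16 of the 20 genes (80%), where it held the highest level of 23.4% of all genes. Of 68 further unfolded protein genes, described below, 17 (25%) were highest in that library, a share near that of all genes. Without knockout 1 the median log2 difference of the 20 genes turned from 0.13 to -0.06, with 7 genes higher and 13 lower. Without both number 1 libraries it was -0.04. Knockout 1 is the library with the highest CD8 T, NK and B cell marker sums and the lowest Cd4 given above; the part of these in the result was not tested.

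None of the 3 genes of ER-associated degradation passed a test of the genotype. Edem1, which hands misfolded glycoproteins over for disposal, had 224, 196 and 191 CPM in wild-type and 267, 230.1 and 209 CPM in knockout libraries 1 to 3. Each knockout library was above its partner, with a log2 difference of 0.21 (SE 0.15), but the ranges of the genotypes overlapped. Herpud1 had log2 ratios of 0.24, -0.19 and 0.05 in pairs 1 to 3, and Syvn1, the ubiquitin ligase of this pathway, 0.26, 0.17 and -0.11.

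Of the sensors, none differed between genotypes beyond its spread. Ern1 had 23.5, 26.7 and 27.2 CPM in wild-type and 28.4, 22.2 and 27.5 CPM in knockout libraries 1 to 3. Eif2ak3 had 53.4, 46.5 and 53.0 CPM in wild-type and 54.2, 45.0 and 45.1 CPM in knockout libraries. Atf6 had 46.5, 34.3 and 48.4 CPM in wild-type and 56.2, 35.0 and 53.8 CPM in knockout libraries. The genotypes overlapped in each, with log2 differences of 0.02 (SE 0.15), -0.08 (SE 0.14) and 0.17 (SE 0.23). Atf6 was higher in the knockout in every pair, and its lowest values were those of both number 2 libraries.

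Xbp1 encodes the factor that IRE1α switches on by cutting a short stretch out of its mRNA, and it drives many chaperone genes. It lies at chr11:5520659-5525893 in GRCm38. Its level was 193, 508 and 282 CPM in wild-type libraries 1 to 3 and 163, 303 and 217 CPM in knockout libraries 1 to 3. Every knockout library was below its partner, while the genotypes overlapped widely and both number 2 libraries were high. The means were 327 ± 163 and 227 ± 71 CPM for wild-type and knockout (SD, n = 3). Without the block edgeR gave a log2 difference of -0.53 (SE 0.39, adjusted p = 0.9999). With the block the difference was -0.46 in edgeR (adjusted p = 0.410) and -0.44 in limma-voom (adjusted p = 0.312). In DESeq2 with the block Xbp1 fell by 0.47 (SE 0.14, adjusted p = 0.0271), lower in 3 of 3 pairs. The log2 ratios of pairs 1 to 3 were -0.24, -0.75 and -0.38. Wild-type 2 decides the size in the fit without a block: without that library edgeR gave -0.06. Leaving out number 1, 2 or 3 in DESeq2 with the block gave -0.56 (adjusted p = 0.0438), -0.33 (adjusted p = 0.341) and -0.50 (adjusted p = 0.465), so the call ended without number 2 or number 3. Of the other 19 unfolded protein genes, 16 had a positive log2 difference in edgeR, on which knockout 1 bears as given above. The 4 Xbp1 transcripts of the table have introns of 300 nt and more in the GENCODE annotation, so the form cut by IRE1α has no entry of its own and its level was not analysed here.

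**Figure D4:**
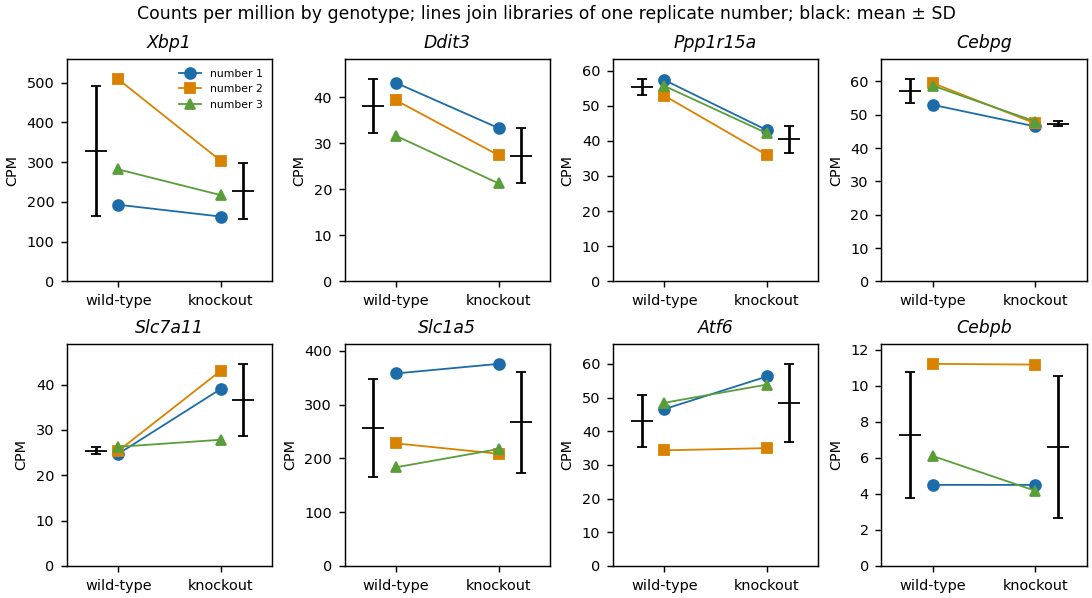
CPM of 8 genes by genotype, with lines joining libraries of the same replicate number and the mean ± SD of 3 libraries in black. Xbp1, Ddit3, Ppp1r15a and Cebpg slope down in every pair. Slc7a11 and Atf6 slope up in every pair, Atf6 by little in pair 2. Slc1a5, Atf6, Cebpb and Xbp1 differ between numbers more than between genotypes.

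Transcription factors of the amino acid response were lower in knockout, as a group, in pairs 2 and 3. The median log2 ratio of the 6 factors was -0.02, -0.53 and -0.51 in pairs 1, 2 and 3. Ddit3, at chr10:127290774-127296288, encodes CHOP, a pro-apoptotic factor of prolonged stress. It had 43.1, 39.3 and 31.6 CPM in wild-type and 33.3, 27.4 and 21.3 CPM in knockout libraries 1 to 3. Each knockout library was below its partner, although knockout 1 was above wild-type 3. The means were 38.0 ± 5.9 and 27.3 ± 6.0 CPM (SD, n = 3). Its log2 difference was -0.48 (SE 0.21, adjusted p = 0.9999) in edgeR and -0.49 (adjusted p = 0.351) in edgeR with the block. In DESeq2 with the block Ddit3 fell by 0.50 (SE 0.14, adjusted p = 0.0175), lower in 3 of 3 pairs. Without number 1, 2 or 3 the difference in that fit was -0.54, -0.49 and -0.46, and the adjusted p was 0.342, 0.308 and 0.987, so the size stayed and the call did not.

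Atf4, the central factor of the response, had 282, 325 and 260 CPM in wild-type and 273, 224 and 215 CPM in knockout libraries 1 to 3. Knockout 1 lay within the wild-type range and the other knockout libraries below it. Its log2 difference was -0.28 (SE 0.16, adjusted p = 0.9999 in edgeR, 0.315 in DESeq2 with the block). Atf3, a factor induced downstream of ATF4, had 28.6, 26.4 and 22.2 CPM in wild-type and 31.9, 13.8 and 14.6 CPM in knockout libraries. Here knockout 1 was the highest of the 6 libraries and the other knockout libraries the lowest, with a difference of -0.36 (SE 0.34). Atf5 had log2 ratios of 0.31, -0.55 and -0.52 in pairs 1 to 3, with the same signs as Atf3. Its highest library was wild-type 2 (13.5 CPM, against 12.1 CPM in knockout 1). Cebpg, a dimer partner of ATF4, had 53.0, 59.5 and 58.7 CPM in wild-type and 46.5, 47.4 and 47.9 CPM in knockout libraries. All knockout libraries were below all wild-type libraries, with a log2 difference of -0.27 (SE 0.12, adjusted p = 0.9999 in edgeR and 0.281 in DESeq2 with the block). Cebpb had 4.50, 11.2 and 6.10 CPM in wild-type and 4.50, 11.2 and 4.17 CPM in knockout libraries. Pairs 1 and 2 were nearly equal, and the level followed the number.

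Among the stress regulators, Ppp1r15a, at chr7:45522916-45526268, separated the genotypes when its transcripts were summed. It encodes GADD34, which directs a phosphatase to eIF2α and so restores translation. It had 57.3, 52.8 and 55.6 CPM in wild-type and 43.0, 36.0 and 42.2 CPM in knockout libraries 1 to 3. Every knockout library was below every wild-type library, and the means were 55.3 ± 2.3 and 40.4 ± 3.9 CPM (SD, n = 3). Complete separation of the libraries by genotype was seen in 2 members with the knockout lower, Ppp1r15a and Cebpg, and in 1 with it higher, Slc7a11, against 3.13% and 3.01% of all genes, so these shares of the 41 members are not far from the background. The log2 difference was -0.45 (SE 0.13, adjusted p = 0.9999) in edgeR and -0.46 (adjusted p = 0.351) with the block. In DESeq2 with the block Ppp1r15a fell by 0.47 (SE 0.12, adjusted p = 0.0114), lower in 3 of 3 pairs, and leaving out any 1 number ended the call (adjusted p from 0.308 to 0.697) while the difference stayed between -0.49 and -0.43. In pair 1 the difference lay almost wholly in a transcript of 389 nt, Ppp1r15a-003, which held 24.9%, 18.5% and 0.000501% of the estimated counts in wild-type and 0.0381%, 16.7% and 0.165% in knockout libraries 1 to 3. The protein-coding Ppp1r15a-001 alone had 42.0, 39.6 and 52.9 CPM in wild-type and 40.8, 28.1 and 41.4 CPM in knockout libraries. Its log2 ratios were -0.04, -0.49 and -0.35, so pair 1 hardly differed on that transcript. The genotypes also overlapped on it, since knockout 1 and knockout 3 were above wild-type 2.

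The other stress regulators did not pass any test of the genotype. Trib3, a pseudokinase that dampens ATF4 and CHOP, had 9.98, 9.76 and 9.88 CPM in wild-type and 11.3, 5.52 and 6.90 CPM in knockout libraries 1 to 3. The wild-type libraries were nearly equal and the knockout libraries lay on both sides of them. Chac1 had 2.30, 1.58 and 1.34 CPM in wild-type and 4.42, 0.941 and 1.32 CPM in knockout libraries, so knockout 1 was again the highest. Sesn2, a leucine sensor that restrains mTORC1, had log2 ratios of 0.36, -0.32 and -0.46 in pairs 1 to 3. Ddit4 had 312, 386 and 458 CPM in wild-type and 237, 381 and 385 CPM in knockout libraries. It was lower in every pair (-0.40, -0.02 and -0.25), with overlapping genotypes. Counting any ratio under 0, however small, 6 of the 21 genes were lower in knockout in every pair, where 16.7% of all genes were: Ddit3, Ppp1r15a, Atf4, Ddit4, Cebpg and Cebpb, the last with ratios of -0.00 in pairs 1 and 2. Of the 20 unfolded protein genes Xbp1 alone was.

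The synthesis enzymes differed in direction between pairs more than any other role. Asns, asparagine synthetase, had 36.4, 27.8 and 21.5 CPM in wild-type and 67.4, 17.2 and 24.1 CPM in knockout libraries 1 to 3. The highest and the lowest library were both knockouts, which differed 3.91-fold, and the log2 difference between genotypes was 0.34 (SE 0.50). Phgdh, the first enzyme of serine synthesis, had 92.9, 76.1 and 65.8 CPM in wild-type and 138, 52.2 and 65.9 CPM in knockout libraries. The pattern was the same, and Psat1, the next enzyme, had log2 ratios of 0.65, -0.50 and 0.18. The mitochondrial one-carbon enzymes Shmt2 (0.20, -0.52 and -0.16) and Mthfd2 (0.54, -0.35 and -0.00) followed. All 5 enzymes were higher in knockout in pair 1 and all 5 lower in pair 2.

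Of the transporters, the cystine carrier gene Slc7a11 was the exception to that order. It had 24.7, 25.4 and 26.3 CPM in wild-type and 39.0, 43.1 and 27.8 CPM in knockout libraries 1 to 3. All knockout libraries were above all wild-type libraries, but knockout 3 by little. The means were 25.4 ± 0.77 and 36.6 ± 7.9 CPM (SD, n = 3), with a log2 difference of 0.53 (SE 0.18, adjusted p = 0.9999) in edgeR. With the block the adjusted p was 0.434 in edgeR and 0.171 in DESeq2. Its log2 ratios were 0.65 and 0.75 in pairs 1 and 2, in which Xist and Ddx3y differed between the libraries, and 0.08 in pair 3, in which they did not. For Xbp1, Ddit3 and Ppp1r15a the ratio in pair 3 was -0.38, -0.56 and -0.40. Genotype and sex cannot be told apart in pairs 1 and 2, and the part of sex in these ratios was not tested. Slc7a5, the leucine carrier, had 85.0, 67.9 and 68.5 CPM in wild-type and 120.0, 42.7 and 66.8 CPM in knockout libraries, with the extremes both in knockout. Its partner chain Slc3a2 had ratios of 0.09, -0.49 and -0.14, and the arginine carrier Slc7a1 had 0.68, -0.18 and -0.06.

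For the amino acid list as a whole, the sum was 1898, 1855 and 1711 CPM in wild-type and 2094, 1491 and 1570 CPM in knockout libraries 1 to 3. Knockout 1 was above and the other knockout libraries below all wild-type libraries, and knockout 1 held the highest level of 13 of the 21 genes (61.9%, against 23.4% of all genes). Without knockout 1 the median log2 difference went from -0.11 to -0.41, with 2 genes higher and 19 lower. In that edgeR fit the unadjusted p was under 0.05 for 6 genes (Ddit3, Ppp1r15a, Atf3, Atf4, Trib3 and Shmt2) and the adjusted p for 0 of the 21, where 231 of all 15593 genes tested had such an unadjusted p and 1 passed. Without both number 1 libraries the median was -0.32. Without knockout 2 the median was 0.03, so its direction turned. The part of the CD8 T, NK and B cell marker sums, highest in knockout 1, was not tested.

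The replicate number accounted for more calls than the genotype, over all genes as well as in both lists. In the edgeR test of the number, 2 of the 20 unfolded protein genes and 2 of the 21 amino acid response genes passed, against 10.2% of all genes. Neither share is above that background. Xbp1 (adjusted p = 0.0297) was high in number 2, with a mean of 406 CPM against 178 in number 1 and 249 in number 3. Atf6 (adjusted p = 0.0492) was low in number 2, at 34.6 CPM against 51.4 and 51.1. Cebpb (adjusted p = 0.0380) was high in number 2, at 11.2 CPM against 4.50 and 5.13. The myeloid marker sum was also highest in number 2 within each genotype. It was 206, 250 and 79.9 CPM in wild-type and 273, 386 and 122 CPM in knockout libraries 1 to 3, and its part in the Cebpb values was not tested. Slc1a5 (adjusted p = 0.0325) was high in number 1, with 358, 228 and 183 CPM in wild-type and 376, 209 and 217 CPM in knockout libraries 1 to 3. Both number 1 libraries exceeded all others for it. They also had the highest CD8 T, NK and B cell marker sums, whose part in the Slc1a5 values was not tested. DESeq2's likelihood ratio test of the number called 6 and 10 members, against 24.8% of all genes, among them Hspa5, Calr, Ddit3, Asns and Phgdh. Without wild-type 2, wild-type 3, knockout 2 or knockout 3, edgeR called 0 members of either list and 168 to 374 of all genes. Xbp1, Atf6, Slc1a5 and Cebpb had an unadjusted p under 0.05 in each of these 4 fits. Without wild-type 1 edgeR called 0 and 6, the 6 being Atf3, Asns, Phgdh, Mthfd2, Slc7a5 and Slc7a1, and 1330 of all 15615 genes. Without knockout 1 it called Xbp1, Slc7a1 and Cebpb, and 1582 of all 15593 genes. All fits of 5 libraries have few residual degrees of freedom, and the cause of the differences between them was not tested. What a number marks is not stated in the labels.

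The listed transcripts give another view of the members. The 41 genes had 137 transcripts, 12 of them had 1 each, and of the 29 with several, 26 had the same leading transcript in all 6 libraries (the exceptions were Herpud1, Syvn1 and Psat1). In 40 genes the leader was protein-coding. In Slc1a5 it was the retained-intron transcript Slc1a5-002, with 57.2% to 66.8% of the estimated counts, so most of its level was assigned to a transcript not annotated as coding. Xbp1-001 alone had log2 ratios of -0.28, -0.76 and -0.29 in pairs 1 to 3, close to those of the gene. Ddit3-001 alone had -0.66, -0.37 and -0.84, lower in every pair, and Slc7a11-001 had 0.65, 0.74 and 0.10. How the counting software divides reads among overlapping transcripts bears on these shares.

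Wider lists of both pathways gave few calls. Of 68 further unfolded protein genes tested, 29 were higher and 39 lower in knockout (median log2 difference -0.03), and 0 passed in edgeR without the block, edgeR with it or DESeq2 with it. The smallest unadjusted p in edgeR with the block were those of Pdia2, a disulfide isomerase, and Ero1l, the oxidase that recharges such isomerases. Pdia2 had 1.64, 2.17 and 2.07 CPM in wild-type and 0.762, 0.798 and 0.891 CPM in knockout libraries 1 to 3, with no overlap. Ero1l had 296, 601 and 1041 CPM in wild-type and 267, 441 and 756 CPM in knockout libraries, lower in each pair and different between numbers. Their adjusted p in DESeq2 with the block was 0.159 and 0.0567. Of 54 further amino acid response genes tested, 30 were higher and 24 lower (median 0.02), with 0 past the threshold in edgeR. In DESeq2 with the block 1 of the 54 passed, against 2.52% of all genes, so the share is not above the background. It was Ndrg1, a gene also induced by low oxygen. It had 96.0, 253 and 492 CPM in wild-type and 73.6, 196 and 313 CPM in knockout libraries 1 to 3 and fell by 0.48 (SE 0.12, adjusted p = 0.00378 in that fit), lower in 3 of 3 pairs. In that fit without the number 1 libraries the call was Got1, the cytosolic aspartate aminotransferase, in place of Ndrg1, without number 2 it was Ndrg1, and without number 3 there was none, where 185, 262 and 144 of all genes were called. Got1 had 129, 314 and 215 CPM in wild-type and 133, 149 and 139 CPM in knockout libraries.

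Set beside the promoter letters shown above, the values of the genes did not sort by ERSE. Of the 8 unfolded protein genes with ERSE, 7 were highest in knockout 1, and so were 7 of the 10 whose window lacked it. Herpud1, which has ERSE-II, was among the 7 without ERSE. The median log2 difference between genotypes was 0.10 in both subsets. Of the 4 amino acid response genes with CARE, 3 were highest in knockout 1 (Asns, Atf3 and Chac1; Slc7a11 was highest in knockout 2), with a median of 0.35 in edgeR without the block. Of the 15 whose window lacked it, 8 were, with a median of -0.16. The CARE value rests on knockout 1 and on that fit: with the block Asns, Atf3, Chac1 and Slc7a11 had log2 differences of 0.13, -0.46, 0.07 and 0.50, and edgeR without knockout 1 gave -0.47 for Asns and -0.63 for Chac1. The subsets are small, these are descriptions without a test, and no match says only that the letters are absent from the window.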

How the data were processed

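RNA was sequenced from 3 wild-type and 3 knockout cultures. Per the file headers, the deposited table lists 93480 transcripts by library with estimated counts, lengths and the GC fraction (not used). The submitters' processing notes name Bowtie2 2.1.0, eXpress 1.3.1 and GRCm38; no annotation release or setting is given in the sources used here. Values above 0.5 were rarely whole (0.02%, within 1e-04). How the software splits reads among overlapping transcripts, and scales short ones, affects the counts.

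Here they were added up by gene (38483 genes) and rounded, with 0 per-sample columns unused. CPM used TMM-scaled totals, and TPM divided each transcript's count by its length. Totals were 47335736 to 49743762, and 0 counts in a library allow up to 3 counts (0.0603 to 0.0634 CPM), which covers counting error only. All pairs of libraries differed by more than sampling noise (chi-square over its degrees of freedom, 56.3 to 274).

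The main test was edgeR 4.0.16 (quasi-likelihood, TMM, filterByExpr, no block; common dispersion 0.169, and 0.0601 with the block), in R 4.3.3, over 15121 genes, with a threshold of 0.05 on the Benjamini-Hochberg adjusted p. Alternatives were DESeq2 1.42.0, limma 3.58.1 (voom, and log2(TPM + 0.5)), other scalings, no filter, the replicate number as a block and libraries left out. The edgeR fits with and without the block, the DESeq2 and limma-voom fits with it, and edgeR's test of the number were tested on simulated counts. Pair ratios used CPM + 0.5. Motif matching, tables and plots used Python 3.11.15, numpy 2.4.6, pandas 2.3.3 and matplotlib 3.10.9. The genotypes share the replicate numbers, and deviations from the group mean correlated across genes at 0.60, 0.45 and 0.64 within a number and at -0.47 to -0.17 between numbers. All 3 exceed 0.1, and the libraries were therefore treated as pairs; this pairing comes from the data, not from a label.

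The members and lists were chosen with earlier results of these data known. Values in every library were given for members past the threshold in any blocked fit or in the test of the number, the 3 of each list with the smallest unadjusted p in the blocked edgeR fit, the highest and lowest by TPM, and Xbp1, Atf6, Ern1, Eif2ak3, Atf4 and Ddit3. Those of Hspa5, Calr, Atf3, Trib3, Asns, Phgdh and Slc7a5 were added to show the pattern, after their values were seen. Cebpg was given outside these rules. Of the wider lists, genes past the threshold in a fit, or otherwise the 2 with the smallest such p, were given, and of the cell type markers those past the threshold in a blocked fit were named, apart from items not reported here.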

Additional observations from a re-analysis of the deposited data

How the results depend on the processing

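With the replicate block, edgeR and limma-voom called 0 genes in either list and 0 of all genes, Il17a included. DESeq2 with the block called 1 unfolded protein gene, 2 amino acid response genes, 1 further amino acid response gene and 381 of all genes. In that fit without number 1, 2 or 3 the counts ranged from 0 to 1 for the unfolded protein genes, were 0 for the amino acid response genes, ranged from 0 to 1 for the further amino acid response genes, and were 185, 262 and 144 over all genes. All genes called were 13 in DESeq2 without the block, 1 in limma on log2(TPM + 0.5), and 0 to 1 in edgeR without each library in turn (1 without knockout 1). In the test of the number, DESeq2's likelihood ratio test called 6 and 10 members and 3757 genes against 2, 2 and 1547 in edgeR, and leaving out each library in edgeR gave 0 to 1, 0 to 6 and 168 to 1582 (over all genes 324, 204, 374 and 168 without wild-type 2, wild-type 3, knockout 2 and knockout 3). Every fit with a library left out has few residual degrees of freedom, those without wild-type 1 and knockout 1 (1330 and 1582 genes called) included. The cause of the differences between settings was not tested. The list medians ran from -0.06 to 0.20 and from -0.41 to 0.03 over the alternatives. Of 738 alternative values of single members, 75 had the opposite sign, in 24 members; 17 members kept their sign in all of them, and no difference of at least 1 SE reversed. Leaving out both libraries of a number in edgeR was chosen after seeing the data. Members below a few CPM, such as Chac1, have the least depth behind them.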
